A study of Mus musculus with 2 samples.

Results

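The genes described here are 10 regulators of heart development in the mouse: Nkx2-5, Isl1, Gata5, Tbx5, Tbx20, Tbx2, Hand1, Hand2, Mef2c and Smyd1. They were chosen by name, and every probe set of the array annotated to exactly 1 gene symbol that was one of them was taken. That gave 27 of 45101 probe sets and 10 of 18193 genes, and no probe set named one of them among several symbols. Of the 10 genes, 9 encode transcription factors that bind DNA. Smyd1 encodes a muscle-restricted lysine methyltransferase, so the name cardiac transcription factors fits it only in the wider sense of a transcriptional regulator. None of the 10 genes lies on chromosome 18.

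The RNA was that of entire mouse embryos, collected 8.5 days post coitum (dpc). One array carried RNA of embryos whose whole chromosome 18 was inherited from the mother as a uniparental disomy (matUPD18), and the other carried RNA of embryos with the paternal disomy (patUPD18), with age and tissue matched. The labels give no strain, no treatment and no number of embryos behind either RNA, and there was no array of embryos with 1 maternal and 1 paternal chromosome 18. With 1 array per genotype no difference could be tested or set against the spread between embryos, and all values below are a description of these 2 arrays. In whole embryos, fewer cells of a type and less RNA per cell cannot be told apart.

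The heart is the first organ to work in the embryo. Precursors in the first and second heart fields of the anterior mesoderm form a tube that begins to beat at about this stage and then loops. A small set of factors, of the NK2 homeodomain, LIM homeodomain, GATA zinc finger, T-box, basic helix-loop-helix and MADS-box families, act together and on each other's genes to start and divide the cardiac muscle programme. Several also work elsewhere in the embryo, for example in limb buds, pharyngeal arches, endoderm, blood vessels and extraembryonic tissue, so their signal in whole-embryo RNA is not that of the heart alone.

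Values are MAS5 signals on a linear scale, and log2 ratios are matUPD18 over patUPD18. A floor was set at the 40th percentile of each array, 84.2 for matUPD18 and 82.5 for patUPD18, and lower signals were set to it before log2 was taken. A probe set was called measurable where its signal on at least 1 array was no lower than that array's 60th percentile, 190.1 for matUPD18 and 184.9 for patUPD18. A gene was read by its brightest probe set, and levels of different probe sets were not compared. The arrays were scaled to a like level by the authors. Impact, the paternally expressed gene of chromosome 18, read 328 in matUPD18 and 2466 in patUPD18 by its brightest probe set, the direction that the labels call for, although its other measurable probe set gave 268 and 205. Genes for heart muscle products were read in the RNA, with 25 of 27 measurable, beside 10484 of all 18193 genes.

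None of the measurable heart regulators differed by 2-fold between the arrays when each was read by its brightest probe set. Of the 10 genes, 9 were measurable, 5 with the higher signal in matUPD18 and 4 with the higher signal in patUPD18. Of all measurable genes, 46.1% had the higher signal in matUPD18. The 4 include Isl1 and Smyd1, whose measurable probe sets lay in opposite directions. Of all 10484 measurable genes, 4.48% lay at least 2-fold apart, 2.70% higher in matUPD18 and 1.78% higher in patUPD18. The median log2 ratio of the 9 genes was 0.09, beside -0.04 for all measurable genes, with an interquartile range from -0.31 to 0.26. At a 1.5-fold threshold, Tbx20 and Tbx5 were higher in matUPD18 and none was higher in patUPD18, where 9.97% and 8.74% of all measurable genes passed in these directions. Probe sets of Mef2c other than its brightest did pass 2-fold, as described with that gene.

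**Figure D1:**
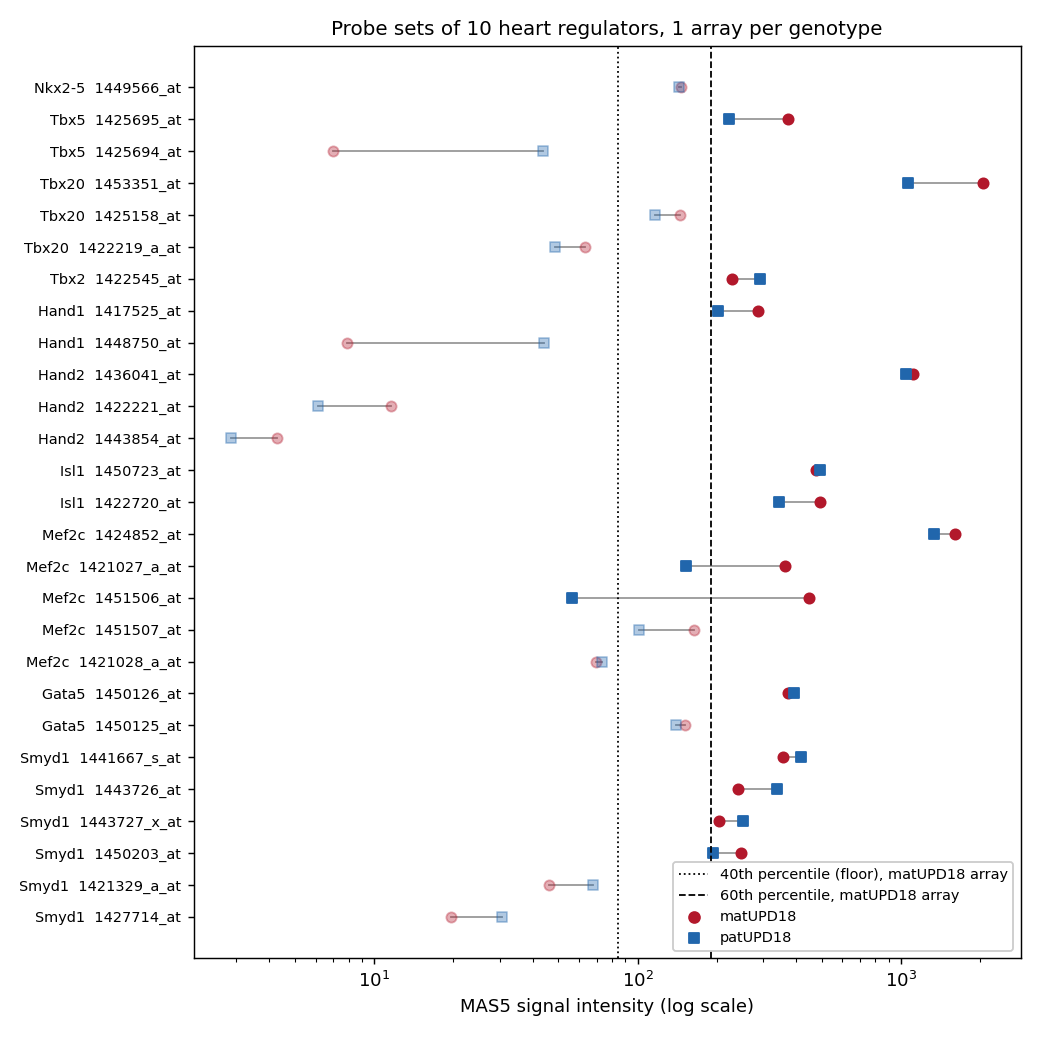
MAS5 signal of each of the 27 probe sets on the matUPD18 array (red circles) and the patUPD18 array (blue squares), on a log axis; faded points are not measurable, and the vertical lines mark the 40th and 60th percentile of the matUPD18 array. Pairs lie close together for most measurable probe sets, with the widest gap for the Mef2c probe set that read 447 and 56.5, and 8 probe sets lie below the floor on both arrays.

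Among the homeodomain genes, Nkx2-5, one of the first genes switched on in cardiac precursors, was not measurable. Its only probe set gave 147 in matUPD18 and 144 in patUPD18, both between the 40th and 60th percentile, and no change can be read from a signal this low. Isl1, a LIM homeodomain gene of the second heart field that also marks motor neurons and pharyngeal tissue, had 2 probe sets, both measurable and both annotated to the same sequence record. The brighter read 476 in matUPD18 and 493 in patUPD18, a log2 ratio of -0.05. The other read 492 and 343, a log2 ratio of 0.52. The Isl1 probe sets thus had opposite directions, and no direction is given for the gene. Gata5, a zinc finger gene expressed in endocardial precursors and in endoderm, read 374 in matUPD18 and 392 in patUPD18, a log2 ratio of -0.07. Its second probe set, not measurable, read 152 and 139. By their brightest probe sets, Isl1 and Gata5 were each within 1.05-fold.

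The T-box genes included the largest ratio by a brightest probe set. Tbx20, which is needed for growth of the cardiac chambers, read 2048 in matUPD18 and 1061 in patUPD18, 1.93-fold higher in matUPD18. Its 2 other probe sets were not measurable. Of these, 1422219_a_at lay below the floor on both arrays (63.2 and 48.5) and gave no order, while the signals of the remaining probe set were 144 and 116. The Tbx20 ratio was just under the 2-fold threshold on a bright probe set. When measurable genes were split by mean signal into 3 parts of equal size, 2.20% of the brightest part lay at least 2-fold apart. Tbx20 was in that part but below this threshold, and the share at its own ratio was not counted. Its mean signal, 1555, was near the lower end of that part (1318 to 40329). Tbx5, a gene of the first heart field, the inflow region and the forelimb, read 374 in matUPD18 and 222 in patUPD18, 1.69-fold higher in matUPD18. A second Tbx5 probe set annotated to the same sequence record read 6.998 and 44.0, below the floor on both arrays, so it gave no order. Tbx2, a repressor of the chamber programme in the atrioventricular canal and outflow tract, was the only 1 of the 3 with the other direction, with 229 in matUPD18 and 291 in patUPD18 (1.27-fold). Tbx5 and Tbx2 were both in the dimmest of these parts, where 7.81% lay at least 2-fold apart.

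The genes Hand1 and Hand2 encode basic helix-loop-helix factors with complementary domains in the heart: Hand1 is associated with the left ventricle and with extraembryonic mesoderm, and Hand2 with the right ventricle, pharyngeal arches and limb. Hand1 read 287 in matUPD18 and 202 in patUPD18, 1.42-fold higher in matUPD18 and also in the dimmest part. Its second probe set, annotated to the same record, read 7.87 and 44.1, below the floor on both arrays. Hand2 read 1111 in matUPD18 and 1041 in patUPD18, 1.07-fold apart. The 2 other Hand2 probe sets read between 2.87 and 11.6 and gave no order. Hand2 was therefore level on the arrays, on a probe set well above the measurable limit.

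**Figure D2:**
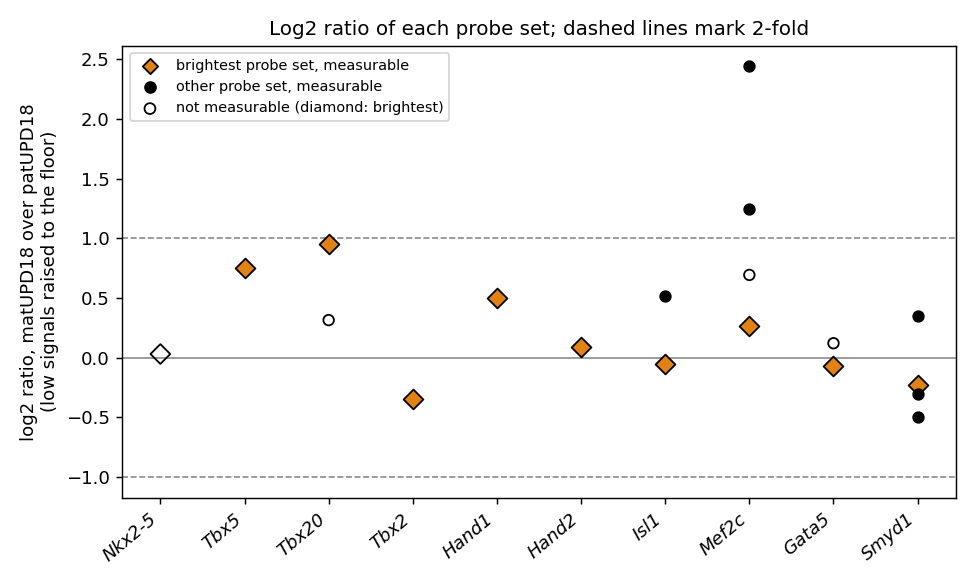
Log2 ratio of matUPD18 over patUPD18 for each probe set of the 10 genes, with low signals raised to the floor and probe sets below it on both arrays left out; diamonds are the brightest probe set of a gene and open symbols are not measurable. All diamonds lie between the dashed 2-fold lines, with Tbx20 at 0.95 and Tbx2 at -0.34 as the extremes, and 2 other Mef2c probe sets lie above the upper line.

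The probe sets of Mef2c did not give 1 ratio. Mef2c encodes a MADS-box factor needed for the second heart field and the right ventricle, and it is also expressed in endothelium, skeletal muscle precursors and neural crest. Its brightest probe set (1424852_at) gave 1607 in matUPD18 and 1335 in patUPD18, 1.20-fold higher in matUPD18. The second (1451506_at) read 447 and 56.5, at least 5.42-fold higher in matUPD18 since the patUPD18 signal lay under the floor. The third (1421027_a_at) read 363 and 153, 2.38-fold higher in matUPD18. The fourth (1451507_at), not measurable, read 164 and 101, and the fifth (1421028_a_at) read 69.6 and 73.3, below the floor on both arrays.

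All 3 measurable Mef2c probe sets were higher in matUPD18, and their log2 ratios were 0.27, 1.25 and 2.44. The annotation ties 1424852_at, 1451506_at and 1451507_at to the same sequence record, so the spread between them was not one between records. The range of these ratios was 2.17, a value set in part by the floor, since the patUPD18 signal of 1451506_at lay under it. Among 932 genes with 3 measurable probe sets the median range was 0.62, and 8 genes (0.858%), Mef2c included, had a range at least as wide. With the floor at the 60th percentile the Mef2c range was 1.01, and 139 genes (14.9%) had one at least as wide. Read by the median over its measurable probe sets, Mef2c was above 2-fold, at a log2 ratio of 1.25. Of the 15 measurable probe sets of the 10 genes, these 2 of Mef2c were the only ones at least 2-fold apart, beside 5.22% of all 16696 measurable probe sets with 1 symbol. The array files do not give the place of each probe set in the transcript, and which transcript each one reads was not tested.

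**Figure D3:**
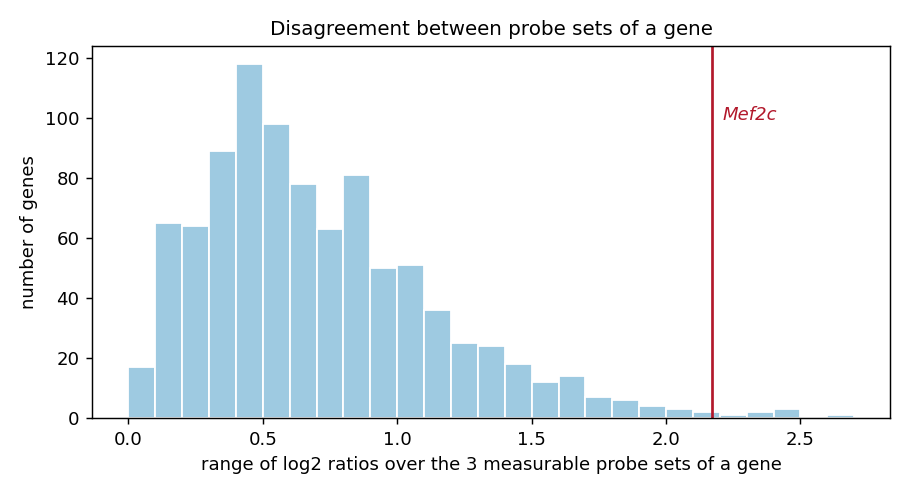
Histogram of the range of log2 ratios over the 3 measurable probe sets of a gene, for 932 genes. Low signals are raised to the 40th percentile, and the red line marks Mef2c at 2.17, while the median gene has a range of 0.62; with the floor at the 60th percentile the Mef2c range is 1.01.

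Smyd1 encodes a SET and MYND domain methyltransferase of heart and skeletal muscle, known to lie downstream of Mef2c and to act on Hand2 expression. Its brightest probe set (1441667_s_at) gave 357 in matUPD18 and 419 in patUPD18, 1.17-fold higher in patUPD18. The second (1443726_at) read 240.3 and 339, and the third (1443727_x_at), annotated to the same record, read 204 and 252, both with the higher signal in patUPD18. The fourth measurable probe set (1450203_at) read 248 in matUPD18 and 194 in patUPD18, the opposite direction. The remaining 2 probe sets lay below the floor on both arrays. The standard deviation of the 4 measurable log2 ratios was 0.37, larger than the size of the gene's own ratio by its brightest probe set, -0.23.

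Disagreement of this size between probe sets was common. Over 4003 genes with at least 2 measurable probe sets, the pooled standard deviation of log2 ratios within a gene was 0.44, and in 49.6% of these genes the measurable probe sets lay in opposite directions. Among the heart regulators, 3 had at least 2 measurable probe sets, and those of Isl1 and Smyd1 lay in opposite directions. Against that spread, the ratios of Hand2, Gata5, Mef2c (brightest probe set), Smyd1, Tbx2 and the brighter Isl1 probe set were each smaller than 1 such standard deviation, and those of Hand1 (0.50), Tbx5 (0.75) and Tbx20 (0.95) were larger. The share of all measurable genes beyond 0.44 was not counted. A 1.5-fold difference, which is larger, was reached by 9.97% of them higher in matUPD18 and 8.74% higher in patUPD18. The spread was pooled over measurable probe sets of all signal levels, and Hand1 and Tbx5 were in the dimmest part. This spread measures disagreement between probe sets and does not include differences between embryos.

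**Figure D4:**
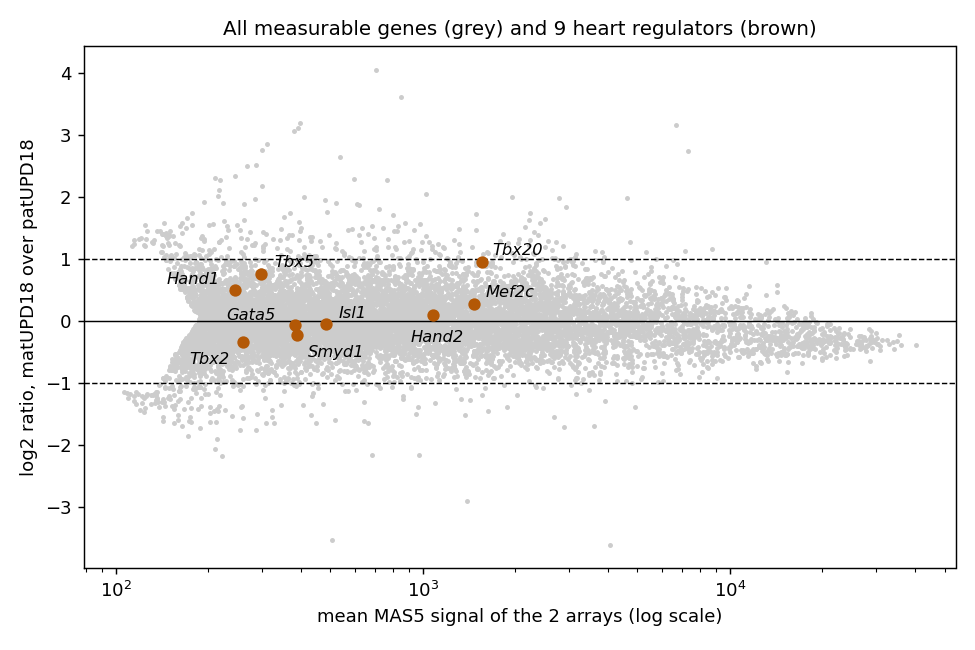
Log2 ratio of matUPD18 over patUPD18 against the mean signal of the arrays for all 10484 measurable genes (grey), each read by its brightest probe set, with the 9 measurable heart regulators in brown. The heart regulators lie inside the grey cloud and within the dashed 2-fold lines, with 5 of them in the dimmest of 3 equal parts of the genes by signal, 2 in the middle part and 2 in the brightest.

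The sequence just before the annotated start was examined for these genes, because their factors are known to act on one another's genes. RefSeq promoter sequences (GRCm38.p6) matched 7 of the 10 genes, with 3 starts for Mef2c and 9 promoters in all; Tbx5, Tbx2 and Hand1 had no entry. Letters searched on both strands of the 250 bases before the start were AGATAA or the variant TGATAA for GATA factors, GGTGTG for T-box factors, TNAAGTG for NK2 factors and CANNTG for E-boxes, which basic helix-loop-helix factors bind. Shown are the promoters of Tbx20, which had the largest ratio by a brightest probe set, of Hand2, which was level, of Isl1, and of the 3 Mef2c starts, because the probe sets of that gene disagreed. Capitals mark matches to the GATA, T-box or NK2 letters on either strand, and E-boxes are not capitalised.
Tbx20, chr9:24774304-24774553, minus strand: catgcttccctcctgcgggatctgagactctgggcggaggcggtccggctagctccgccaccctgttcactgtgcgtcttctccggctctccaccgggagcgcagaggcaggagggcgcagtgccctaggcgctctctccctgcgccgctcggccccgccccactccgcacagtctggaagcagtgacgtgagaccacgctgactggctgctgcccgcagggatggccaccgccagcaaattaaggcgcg
Hand2, chr8:57320733-57320982, plus strand: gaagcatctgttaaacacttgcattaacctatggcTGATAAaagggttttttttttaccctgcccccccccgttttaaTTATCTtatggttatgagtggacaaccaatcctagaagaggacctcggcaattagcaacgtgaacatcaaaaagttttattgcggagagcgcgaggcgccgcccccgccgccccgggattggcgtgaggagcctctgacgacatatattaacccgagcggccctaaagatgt
Isl1, chr13:116309689-116309938, minus strand: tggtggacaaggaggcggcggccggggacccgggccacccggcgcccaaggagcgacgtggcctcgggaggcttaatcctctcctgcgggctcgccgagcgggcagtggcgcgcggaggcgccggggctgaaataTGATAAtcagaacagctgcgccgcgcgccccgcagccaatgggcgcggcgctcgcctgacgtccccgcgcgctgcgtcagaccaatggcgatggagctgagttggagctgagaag
Mef2c upstream start, chr13:83503784-83504033, plus strand: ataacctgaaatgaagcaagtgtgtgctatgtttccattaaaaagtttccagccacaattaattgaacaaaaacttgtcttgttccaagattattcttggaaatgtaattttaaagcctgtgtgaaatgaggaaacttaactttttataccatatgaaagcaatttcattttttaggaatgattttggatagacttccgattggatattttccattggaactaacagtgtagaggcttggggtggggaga
Mef2c middle start, chr13:83523406-83523655, plus strand: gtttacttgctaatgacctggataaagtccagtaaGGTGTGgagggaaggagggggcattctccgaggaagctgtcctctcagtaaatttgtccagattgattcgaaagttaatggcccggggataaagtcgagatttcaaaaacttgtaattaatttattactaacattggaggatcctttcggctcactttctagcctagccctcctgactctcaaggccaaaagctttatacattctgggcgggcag
Mef2c downstream start, chr13:83573357-83573606, plus strand: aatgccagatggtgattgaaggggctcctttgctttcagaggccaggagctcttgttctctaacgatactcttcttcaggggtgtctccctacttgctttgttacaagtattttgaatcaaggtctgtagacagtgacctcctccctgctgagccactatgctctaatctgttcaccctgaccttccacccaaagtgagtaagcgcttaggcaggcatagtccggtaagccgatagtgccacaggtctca

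GATA letters stood in the promoters of Hand2, with 2 matches, and Isl1, with 1, and in 16.6% of all 32851 promoters. The T-box letters stood 215 bases before the middle Mef2c start and in 16.3% of all promoters. The NK2 letters stood 238 bases before the Smyd1 start and in 10.1% of all promoters. E-box letters stood in 6 of the 9 promoters, beside 66.2% of all. The Tbx20 window held none of the letters searched. The windows of Tbx20 and Isl1 were rich in G and C, at 68.8% and 71.2%, against a median of 52.4% over all promoters, and that of the upstream Mef2c start was low, at 33.6%. A match is a run of letters and not a binding site, and no match says only that these letters were not in this window.

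Other factors of the heart field lay mostly within 2-fold by their brightest probe sets. Of 35 further genes, including Gata4, Gata6, Tbx1, Tbx3, Srf and the Irx and Hey families, 25 were measurable, 24 lay within 2-fold in this reading and 1 was at least 2-fold higher in matUPD18. That was Eya1, a transcriptional coactivator of the pharyngeal region, with 1202 in matUPD18 and 440.3 in patUPD18 (2.73-fold) and the same direction in its other measurable probe set. Gata6, a partner of Gata5 in heart and endoderm that itself lies on chromosome 18, read 490 in matUPD18 and 252 in patUPD18 (1.94-fold). Hey2, a Notch target of the ventricle, read 208 and 119. In the other direction Irx4, also a ventricular gene, read 112 in matUPD18 and 214 in patUPD18 (1.92-fold), followed by Heyl (1.35-fold) and Tead1 (1.31-fold). The median log2 ratio of the list was 0.14. Over all measurable probe sets with 1 symbol, 5.22% lay at least 2-fold apart. Of the 16 other measurable probe sets of the listed genes 4 did, 3 of them from the MEF2 family. Mef2a had 2 of them, with 255 against 104 and 241 against 97.7, higher in matUPD18 (2.45-fold and 2.47-fold) like its brightest probe set, which read 703 and 422 (1.67-fold). One of Mef2d read 63.0 in matUPD18 and 301 in patUPD18, at least 3.57-fold higher in patUPD18, where its brightest probe set was 1.23-fold higher. The fourth, of Nr2f2, was 2.01-fold higher in matUPD18. These probe sets were named after their values were seen. Of the other T-box genes 4 were measurable, all within 2-fold. Mga (1.57-fold) and Tbx1 (1.33-fold) were higher in matUPD18 and Tbx3 (1.26-fold) was higher in patUPD18. Of these 4, Tbx1, Tbx3 and Tbx18 were already counted among the heart factors above.

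Proteins that work with these factors showed no 2-fold difference by their brightest probe sets. Of 19 cofactor genes 17 were measurable, each less than 2-fold apart in this reading, and their log2 ratios had a median of -0.03. As with Mef2c, 2 of their 16 other measurable probe sets did pass 2-fold, beside 5.22% of all measurable probe sets with 1 symbol. One of Mapk14, a kinase that acts on MEF2 factors, read 405 in matUPD18 and 51.9 in patUPD18 (at least 4.91-fold), beside a log2 ratio of -0.03 by the brightest. One of Tcf12 read 353 and 67.1 (at least 4.28-fold), beside -0.20 by the brightest. Ep300, a histone acetyltransferase that works with GATA and MEF2 factors, read 832 in matUPD18 and 454 in patUPD18 (1.83-fold). Its relative Crebbp was 1.54-fold higher, with 1 of its 2 other measurable probe sets in the opposite direction, and Smarcd3, the heart-enriched subunit of the BAF chromatin remodelling complex, 1.52-fold higher in matUPD18. Hdac4, a repressor of MEF2 factors, was 1.39-fold higher in patUPD18, as was Carm1 at 1.25-fold. Tcf12, a partner of the Hand proteins, was 1.15-fold higher in patUPD18, with 2 of its 4 other measurable probe sets in the opposite direction.

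Genes for heart muscle products had ratios around 0. All 25 measurable heart muscle genes lay within 2-fold by their brightest probe sets, 11 with the higher signal in matUPD18 and 14 in patUPD18, and the median log2 ratio was -0.05. Of their 15 other measurable probe sets 1, of Nebl, passed 2-fold, at 2.005-fold higher in matUPD18. The share over all measurable probe sets with 1 symbol was 5.22%. The direction of the brightest was shared by 0 of 3 others for Tpm1, 1 of 4 for Atp2a2 and 0 of 1 for Pln. For Nebl, Ttn, Myl3 and Tnnt2 all other measurable probe sets shared it. Nebl (1.75-fold), Ttn (1.62-fold) and Myl4 (1.24-fold) led in matUPD18. Myl2, the ventricular myosin light chain, read 1747 in matUPD18 and 2802 in patUPD18 (1.60-fold), followed in that direction by Actc1 (1.42-fold) and Myl3 (1.40-fold). Any link between the ratios of the muscle list and those of Tbx20 and Tbx5 was not tested.

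Genes for signals that induce and pattern the heart fields had a median log2 ratio of 0.33. Of 17 measurable genes, 13 had the higher signal in matUPD18, beside 46.1% of all measurable genes, and all 17 lay within 2-fold. Jag1, a Notch ligand, read 617 in matUPD18 and 311 in patUPD18 (1.98-fold), Tgfb2 was 1.69-fold higher in matUPD18, and Aldh1a2, the main enzyme of retinoic acid synthesis in the embryo, 1.62-fold. Notch1 (1.41-fold, with its other measurable probe set in the opposite direction), Wnt5a (1.36-fold) and Wnt2 (1.19-fold) were higher in patUPD18. These counts describe the list in 2 arrays and carry no test.

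The arrays also differed in markers of other tissues. The visceral endoderm and red cell lists partly hold genes that had stood out in earlier results of these data. Their counts are therefore no independent evidence. All 14 visceral endoderm genes read were measurable and higher in matUPD18, beside 46.1% of all measurable genes. By at least 2-fold, 13 of them were higher, beside 2.70% of all measurable genes. Their summed signal was 36740.3 in matUPD18 and 5634 in patUPD18. By their brightest probe sets, Apoa1 (at least 16.6-fold), Apom (at least 9.17-fold) and Ttr (8.88-fold) led them. Ttr and Spink1 of this list lie on chromosome 18, and whether the disomy itself changed their signal was not tested. Of the 10 other measurable probe sets of the list 7 passed 2-fold. The furthest apart, of Afp, read 11798 in matUPD18 and 526 in patUPD18 (22.4-fold). All 10 primitive red cell genes were higher in patUPD18, 6 of them by at least 2-fold and Ermap (3.15-fold), Slc4a1 (2.63-fold) and Hemgn (2.62-fold) the furthest, with summed signals of 46468 and 71554. All 9 measurable genes of the foregut endoderm list were higher in matUPD18, beside 46.1% of all measurable genes. Over the 11 genes of that list on the array, the summed signals were 18740 and 6693. Without Ttr and Spink1, which that list shares with visceral endoderm, the 7 other measurable genes, led by Foxa1 (1.53-fold), had a median log2 ratio of 0.16. Gata5 and Isl1, both with domains in endoderm, had log2 ratios of -0.07 and -0.05 by their brightest probe sets, but the other measurable Isl1 probe set had one of 0.52. The part of these tissues in the ratios of Tbx20, Tbx5, Hand1 and Mef2c was not tested.

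The other 3 lists were drawn up for tissues in which some of these genes, such as Hand1 and Hand2, are also expressed. A place in a list does not make a gene particular to that tissue. The 10 measurable genes of the extraembryonic mesoderm list were each less than 2-fold apart, with log2 ratios of median 0.21. Over the 12 genes of that list on the array, the summed signals were 16656 in matUPD18 and 13558 in patUPD18. Krt8 alone gave 7072 and 5546 of these. Col1a1 (1.78-fold), Plac1 (1.67-fold) and Igf2 (1.66-fold) were higher in matUPD18, and Wnt6 (1.30-fold), Bmp4 (1.18-fold) and Ahnak (1.10-fold) were higher in patUPD18. The 7 measurable genes of the limb and lateral plate list also lay within 2-fold, with a median of -0.25. Over the 9 genes of that list on the array, the summed signals were 4952 and 5623. Prrx1 (1.69-fold), Meox1 (1.495-fold) and Hoxb6 (1.39-fold) were higher in patUPD18, and Twist1 (1.22-fold) and Foxf1 (1.09-fold) in matUPD18. Of 10 trophoblast genes, 5 were on the array, with summed signals of 803 and 1092 over these 5, and 2 were measurable. The defining trophoblast genes Ascl2 and Tpbpa lay below the floor on both arrays. Plac1, which the extraembryonic mesoderm list also holds, was 1.67-fold higher in matUPD18. Cdx2, which the embryo's tail bud also expresses, was 3.13-fold higher in patUPD18.

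**Figure D5:**
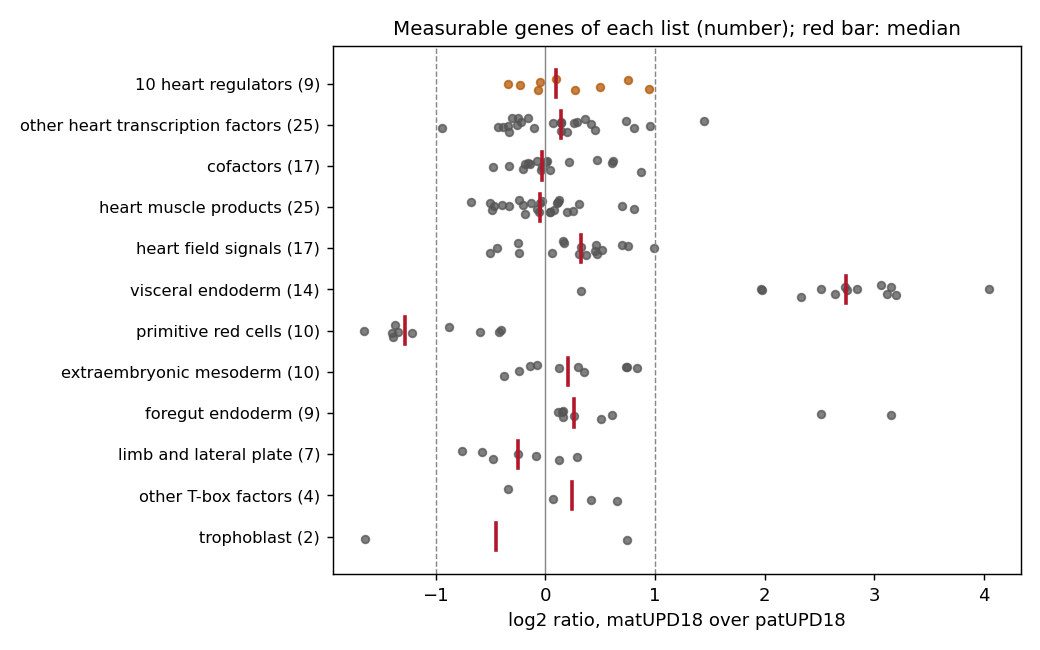
Log2 ratio of matUPD18 over patUPD18 for the measurable genes of each list, with 1 point per gene, the number of genes in brackets, vertical jitter for display and a red bar at the median. Some genes stand in several lists, and the visceral endoderm and red cell lists partly hold genes that had stood out in these data. The heart regulators, with a median of 0.09, and the heart muscle products, with a median of -0.05, lie around 0, while visceral endoderm genes lie to the right and primitive red cell genes to the left.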

How the data were processed

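The authors made the deposited MAS5 signal intensities, on a linear scale, using MAS5/GCOS, per the submitters' processing notes; no version is given there as used here. The RNA had been amplified with a RiboAmp kit before labelling per the labels' protocols, which favours 3' ends. The 2% trimmed means, 500.003 (matUPD18) and 500.004 (patUPD18), show a common scaling, so a shift of most transcripts together would be hidden. No further scaling and no detection calls were used.

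Of 45101 probe sets 34958 carry exactly 1 symbol in the platform annotation, and 34754 of these were updated by Entrez identifier to RefSeq symbols (GRCm38.p6). The annotation's build is unknown, so that table gave symbols and chromosomes only; promoter coordinates are RefSeq's own. Folds whose lower signal lay under the floor are given as "at least". With 1 array for each genotype, precision is limited by their number and no test was possible.

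The heart regulators and all gene lists were chosen with earlier results of these data known, and the visceral endoderm and red cell lists partly hold genes that had stood out, so their counts are no independent evidence. Up to 3 measurable genes with the largest ratio in each direction were named from each list. Ascl2, Tpbpa, Krt8 and genes given as examples of content were named besides. Alternatives covered scaling between arrays (3 methods, namely centring on the median, quantile and loess), floors, filters, probe set rules and a 1.5-fold threshold; the Mef2c range under other floors was an alternative chosen after seeing the data. Probe sets dimmer than the brightest that passed 2-fold were named after their values were seen. Simulated data were used to test the calculation, with Python 3.11.15, numpy 2.4.6, pandas 2.3.3, statsmodels 0.14.6 and scipy 1.17.1; figures used matplotlib 3.10.9.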

Additional observations from a re-analysis of the deposited data

How the results depend on the processing

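Tbx20 kept its direction (log2 ratio from 0.91 to 0.95), as did Tbx5 (0.70 to 0.75), Hand1 (0.45 to 0.50) and Hand2 (0.05 to 0.09). So did Mef2c, Tbx2, Smyd1 and Gata5, in each case under every alternative run that gave the gene a value. Hand1 and Tbx2 were not measurable, and had no value, with the filter at the 70th percentile. The direction of Isl1 turned from -0.05 to 0.24 with the median over its probe sets. That rule also took Mef2c from 0.27 to 1.25, so that 1 of the 9 genes was at least 2-fold higher in matUPD18 in place of 0. At 1.5-fold, 2 genes passed in matUPD18, 4 probe sets passed in either direction, and 1045 and 916 of all measurable genes passed in matUPD18 and patUPD18, in place of 283 and 187. With the floor at the 60th percentile, 1 of the 2 Mef2c probe sets fell under 2-fold, the other read 1.27, the range over the Mef2c probe sets fell from 2.17 to 1.01, the visceral endoderm median was 1.92, and 78 of all genes passed 2-fold in the patUPD18 direction; with the filter at the 70th percentile this last count was 99. Without a floor the Mef2c probe set 1451506_at had a log2 ratio of 2.99 and the Mef2c range was 2.72 (both range alternatives were chosen after seeing the data), and without a filter the trophoblast median was 0.029, as more of its genes lay at the floor. Of 268 values recomputed under 10 settings, these 15 moved, by more than the spread between probe sets for log2 ratios or by over 1.5 times for counts. No paired analysis was possible because each genotype has 1 array. For the same reason no replicate could be left out, and differences between embryos are not measured. Nkx2-5 and 12 of the 27 probe sets were too dim to show a change.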
